A study of Homo sapiens with 9 samples.

Results

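The genes described here are 10 regulators of the mitochondrial pathway of apoptosis from the BCL2 family: BCL2, MCL1, BCL2L1, BCL2L11, BAX, BAK1, BID, BAD, PMAIP1 and BBC3. They were chosen by name, because BPDCN, the blastic neoplasm of plasmacytoid dendritic cells, is known to depend on BCL2. All 10 were among the 25540 gene symbols of the table, and all 10 passed the filter on low values (a mean of at least 1 TPM over the libraries). Proteins of this family decide whether the outer mitochondrial membrane stays intact. The guardians BCL2, MCL1 and BCL-xL (the product of BCL2L1) hold the pore-forming effectors BAX and BAK1 in check. BH3-only proteins, here BIM (BCL2L11), BID, BAD, NOXA (PMAIP1) and PUMA (BBC3), bind the guardians, and some of them also activate the effectors directly. BPDCN cells are known for their sensitivity to the BCL2 inhibitor venetoclax.

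RNA was sequenced from CAL-1, a human BPDCN cell line, in 9 libraries. The CRISPR interference groups were labelled KHSRPi#1 and KHSRPi#2, both with the genotype KHSRP knockdown, and the control group was labelled NTC with the genotype WT, with 3 libraries in each group. What #1 and #2 stand for, which effector carried out the interference and how long after it the cells were collected are not given in the labels. The protein KHSRP binds RNA through KH domains and is known to hasten the decay of AU-rich mRNAs. Values are TPM, a share of each library's transcripts scaled by transcript length, so that levels of different genes can be compared; read totals are not part of such values, and the depth is unknown. KHSRP mRNA was at 33.7 to 36.5 TPM in the 6 knockdown libraries, against 216 to 253 TPM in the 3 NTC libraries. Of 14 markers of the BPDCN lineage, 12 had a mean of at least 1 TPM, LILRA4 was below it, and IL3RA, the gene of the CD123 antigen, was listed at 0 in every library; a listed 0 can be a failed estimate and is not read as absence of the mRNA. T cell and erythroid markers summed to at most 0.0743 and 0.164 TPM in any library. The B cell markers PAX5 and CD79A were low. Of the myeloid markers, lysozyme (LYZ) alone exceeded 1 TPM.

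The order of levels was the same for most neighbouring genes in every library. BAX was the most abundant of the 10, at 179 TPM over the 9 libraries. BCL2 at 131 TPM and MCL1 at 127 TPM followed and did not differ beyond their spread, BCL2 being the higher of this pair in 4 of 9 libraries. PMAIP1 came next with 98.0 TPM, then BID with 63.2 TPM, BAK1 with 29.4 TPM and BAD with 20.9 TPM. BCL2L11 at 15.3 TPM and BCL2L1 at 13.8 TPM overlapped in range, with BCL2L11 higher in 8 of 9 libraries. BBC3 was lowest, at 2.68 TPM, or 9.47% of the way up the levels of the 10939 tested genes, where BAX stood at 92.6%. Each other pair of neighbours in this order kept its order in all 9 libraries, with ranges that did not overlap. BAX supplied 85.2% to 86.1% of the summed BAX and BAK1 level in knockdown libraries and 85.9% to 86.3% in NTC libraries. Among the 10 members, at the mRNA level, BCL2L1 was the least abundant guardian and BBC3 the least abundant BH3-only gene.

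**Figure D1:**
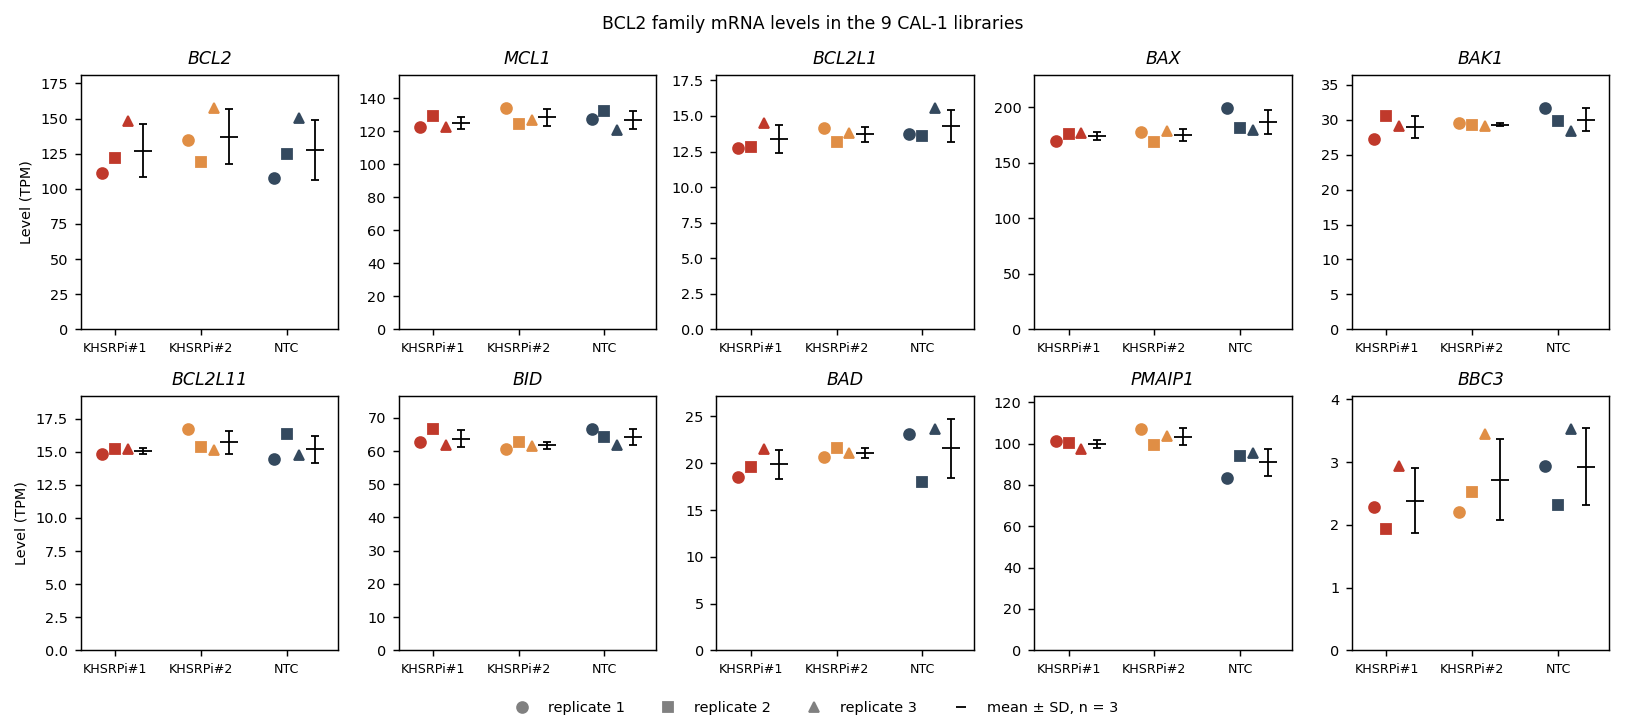
Level of each gene in TPM (y axes, each starting at 0) in the 3 libraries of KHSRPi#1, KHSRPi#2 and NTC; symbols give the replicate number, and the black bar the mean with its SD (n = 3). BAX and PMAIP1 are the genes whose 6 knockdown libraries do not overlap the 3 NTC libraries, and the replicate 3 triangles of BCL2 and BBC3 lie highest in all 3 groups.

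The genes lie on 8 chromosomes in the GENCODE 29 annotation of hg38, the build named for the files. On chromosome 18, BCL2 is at 63123346 to 63320128 (minus strand) and PMAIP1 at 59899948 to 59904306 (plus strand). BAX (48954815 to 48961798, plus strand) and BBC3 (47220822 to 47232766, minus strand) are both on chromosome 19, as is KHSRP (6413348 to 6424794). MCL1 is at 150574551 to 150579738 of chromosome 1 on the minus strand. The other members are BCL2L1 (chromosome 20, 31664452 to 31723989, minus strand), BAK1 (chromosome 6, 33572547 to 33580293, minus strand), BID (chromosome 22, 17734138 to 17774770, minus strand), BAD (chromosome 11, 64269830 to 64284704, minus strand) and BCL2L11 (chromosome 2, 111119378 to 111168447, plus strand). Because KHSRP is known for AU-rich elements, the 3' UTRs of the principal transcripts were searched for the pentamer ATTTA, on the mRNA strand, and for ATTTATTTA, a run of 9 letters that contains the pentamer. BCL2 was the one member with the longer run: its 3' UTR of 5279 bases held 13 pentamers and 2 overlapping copies of the run. Among 640 tested genes with a 3' UTR of similar length (80% to 125% of it), 20.3% held the run and 47.0% had at least as many pentamers. MCL1 held 10 pentamers in 2819 bases, a count reached by 24.5% of 1278 genes of similar length. PMAIP1 held 5 in 1553 bases, a count reached by 31.8% of 1418 genes. BCL2L1 held 3, BID 2 and BCL2L11 1, while BAX, BAK1, BAD and BBC3 held 0. A match is a description of letters and no evidence that KHSRP binds there.

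For the members with the most pentamers, the 30 bases of 3' UTR richest in them are shown, read from GENCODE 29 transcripts in the 5′ to 3′ direction of the mRNA with T for U; capitals mark ATTTA. BCL2 is the member that holds the run ATTTATTTA. PMAIP1 is also the member with the largest fold change in size under knockdown, which did not pass adjustment over all tested genes. Any link between these letters and the levels was not tested. The windows lie at chr18:63128353-63128382 (minus strand) for BCL2, chr18:59903967-59903996 (plus strand) for PMAIP1 and chr1:150576217-150576246 (minus strand) for MCL1.
BCL2: gaaaaaaagATTTATTTATTTAagacagtc
PMAIP1: aattttATTTAttttgcctATTTAtaatta
MCL1: gacctaATTTAactggtgaaATTTAaagtg

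Knockdown libraries were then set against control libraries to see how the levels of these genes stood when KHSRP was reduced. None of the 10 genes was called: 0 rose and 0 fell at an adjusted p under 0.05 with limma on log2(TPM + 1), for the mean of both knockdown groups. The share of all tested genes called there was 0.0823%, and the members' count of 0 of 10 is read against that share. At an unadjusted p under 0.05, PMAIP1 was the 1 member that passed, where 7.93% of tested genes did. BAX joined it in a fit with a term for the replicate 3 libraries, where 1909 of 10939 tested genes passed. Of the 10 fold changes 3 were positive and 7 negative, with a median of -0.036 on the log2 scale, against 0.018 for all tested genes. The median absolute change was 0.059 for the members and 0.060 for all tested genes. In bulk RNA, fewer cells of a kind and less RNA per cell cannot be told apart.

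Among the guardians the levels in knockdown and control libraries overlapped. BCL2, the target of venetoclax, was at 111, 122 and 148 TPM in KHSRPi#1, 135, 119 and 158 TPM in KHSRPi#2, and 107, 125 and 150 TPM in NTC (replicates 1, 2 and 3). In every group the replicate 3 library was the highest, and the groups covered nearly the same range. The log2 fold change of BCL2 was 0.054 (95% interval -0.22 to 0.33, limma adjusted p = 0.941). MCL1, a guardian with a short-lived mRNA and protein, was at 123, 129 and 123 TPM in KHSRPi#1, 134, 125 and 127 TPM in KHSRPi#2, and 127, 132 and 121 TPM in NTC. Its libraries were mixed across groups. The log2 fold change was -0.0018 with an interval of -0.10 to 0.099 (adjusted p = 0.995), the smallest change of the 10. BCL2L1 was at 12.7 to 14.5 TPM in the knockdown libraries (median 13.5) and at 13.6 to 15.6 TPM in NTC libraries (median 13.7), with a log2 fold change of -0.073 (adjusted p = 0.834). The summed level of the 3 guardians was 272 ± 19.6 TPM in knockdown (SD, n = 6) and 269 ± 19.3 TPM in NTC (SD, n = 3), of which BCL2 made up 48.3% ± 3.24 and 47.2% ± 4.65.

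Of the effectors, BAX was lower in all knockdown libraries than in all NTC libraries. It was at 170, 176 and 176 TPM in KHSRPi#1, 178, 169 and 179 TPM in KHSRPi#2, and 199, 181 and 180 TPM in NTC. The groups did not overlap, but the gap was narrow, with 179 TPM as the highest knockdown level against 180 TPM as the lowest NTC level, and NTC replicate 1 stood above the other controls. The log2 fold change of BAX was -0.096 (SE 0.045, 95% interval -0.20 to 0.0048) and did not pass (limma adjusted p = 0.636). With a term for the replicate 3 libraries the interval was -0.18 to -0.0076, with an unadjusted p of 0.0356 and an adjusted p of 0.249. In that fit 1909 of 10939 tested genes had an unadjusted p under 0.05. An exact permutation test (two-sided) of its TPM alone gave p = 0.0238, the smallest that 6 libraries against 3 allow, with no adjustment for the 10 genes looked at. Groups that do not overlap always give this value, so it restates the separation. All tested genes with knockdown libraries on one side of the controls made up 4.67%, of which 1.57% of tested genes were lower. Without NTC replicate 1 the fold change of BAX was -0.048, with an adjusted p of 0.998. BAK1, the other pore former, overlapped between groups, at 27.3 to 30.5 TPM in knockdown libraries and 28.5 to 31.7 TPM in NTC libraries (log2 fold change -0.039, adjusted p = 0.897).

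Of the BH3-only genes, PMAIP1 was higher in all knockdown libraries than in all NTC libraries. NOXA, its product, is known to bind MCL1 and promote its degradation. PMAIP1 was at 101, 100 and 97.5 TPM in KHSRPi#1, 107, 99.2 and 104 TPM in KHSRPi#2, and 83.5, 93.9 and 95.4 TPM in NTC. The lowest knockdown level was 97.5 TPM and the highest NTC level 95.4 TPM, and NTC replicate 1 was again the library farthest from the rest. The log2 fold change was 0.16 (SE 0.052, 95% interval 0.044 to 0.27), the largest in size of the 10, and did not pass (limma adjusted p = 0.503). It ranked above 87.6% of tested genes by absolute change. Its exact permutation p (two-sided, unadjusted) was 0.0238, again the smallest possible and fixed by the lack of overlap. Such a lack of overlap, with all knockdown libraries above all controls, was found for 3.1% of tested genes. Without NTC replicate 1 the fold change of PMAIP1 was 0.10, 1 of the 9 values between 0.10 and 0.19 that leaving out a library gave, and the adjusted p 0.998. With a term for the replicate 3 libraries its adjusted p was 0.108, where 1.76% of tested genes were called. That fit called 0 members for the mean of both knockdown groups, for KHSRPi#1 (0.676% of tested genes) and for KHSRPi#2 (0.804% of tested genes). PMAIP1 made up 49.0% to 51.6% of the summed level of the BH3-only members in knockdown libraries and 43.8% to 48.2% in NTC libraries. That sum leaves out BH3-only genes outside the 10 members, such as BIK. The ratio of PMAIP1 to MCL1 levels was 0.778 to 0.826 in knockdown libraries and 0.656 to 0.788 in NTC libraries, which overlap.

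The other 4 BH3-only genes overlapped between groups. BBC3, which encodes PUMA, was at 2.29, 1.93 and 2.95 TPM in KHSRPi#1, 2.21, 2.52 and 3.45 TPM in KHSRPi#2, and 2.94, 2.31 and 3.53 TPM in NTC. Replicate 3 was the highest library of each group, as for BCL2. The log2 fold change was -0.15 with a wide interval of -0.46 to 0.17 (limma adjusted p = 0.841). Leaving out single libraries moved it between -0.26 (without NTC replicate 2) and -0.037 (without NTC replicate 3). BID, cleaved by caspase 8 to link death receptors to mitochondria, was at 60.7 to 66.7 TPM in knockdown libraries and 61.8 to 66.6 TPM in NTC libraries. BAD, whose protein is held inactive by phosphorylation, was at 18.5 to 21.7 TPM in knockdown libraries and 18.0 to 23.7 TPM in NTC libraries. BCL2L11, which encodes the activator BIM, was at 14.8 to 16.7 TPM in knockdown libraries and 14.5 to 16.3 TPM in NTC libraries. Their log2 fold changes were -0.033, -0.064 and 0.021, none past the threshold (adjusted p from 0.894 to 0.956).

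**Figure D2:**
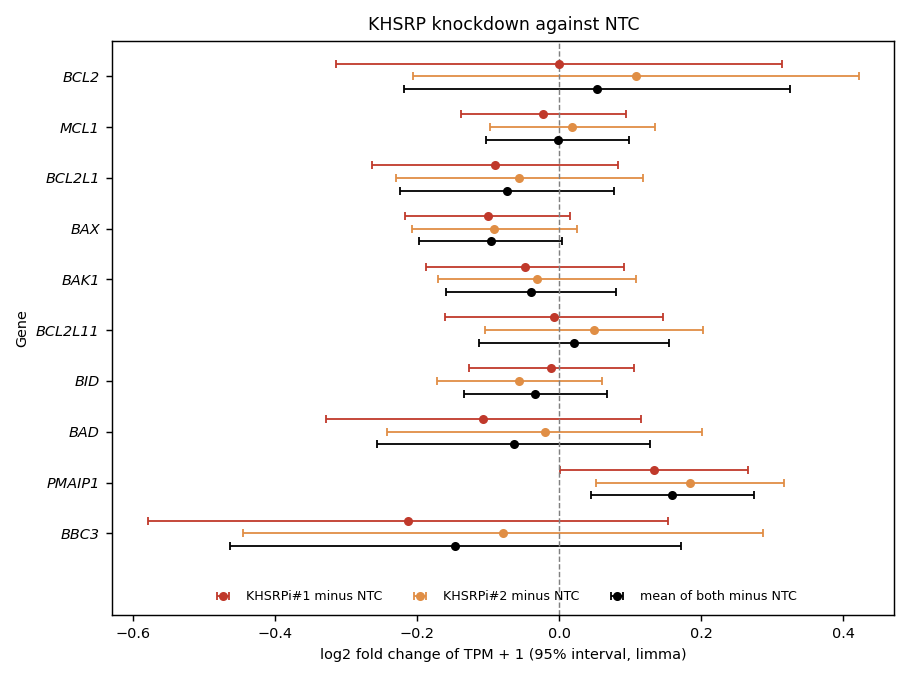
Log2 fold change of TPM + 1 (x axis) with its 95% interval from limma for each gene, for KHSRPi#1 minus NTC (red), KHSRPi#2 minus NTC (orange) and the mean of both minus NTC (black). The intervals of PMAIP1 lie above 0, all others include 0, and no gene passes after adjustment over all tested genes.

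**Figure D3:**
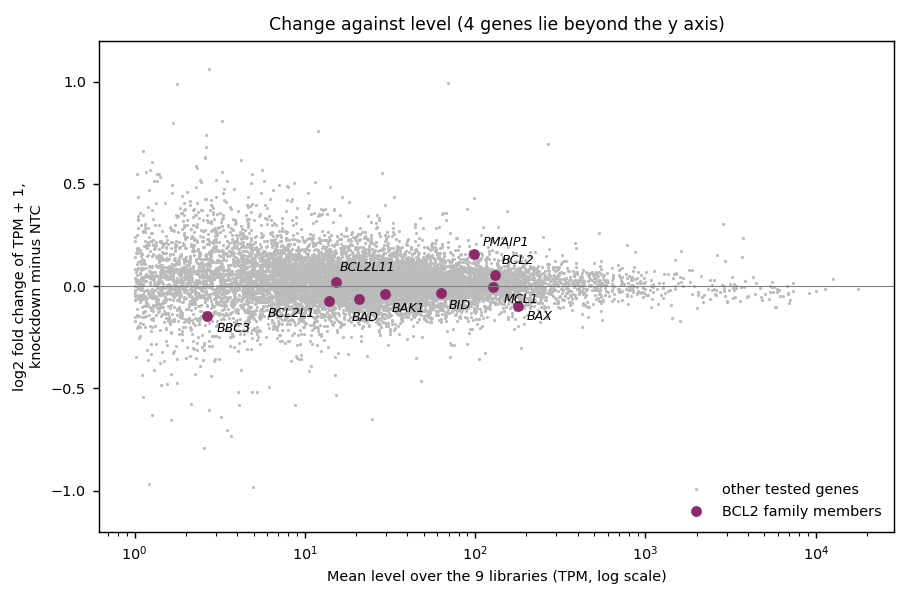
Log2 fold change of TPM + 1, knockdown minus NTC (y axis), against the mean level over the 9 libraries in TPM (x axis, log scale) for the tested genes (grey) and the 10 members (purple); 4 of the 10939 tested genes lie beyond the axis limits of ±1.2 and are not drawn. The members lie within the cloud of other genes, with PMAIP1 at 0.16 and BBC3 at -0.15 as the outermost.

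The knockdown groups were also set against the controls one at a time; both share the same 3 NTC libraries. No member was called in either with limma, where 0.0548% of tested genes were called for each. At an unadjusted p under 0.05 PMAIP1 passed in both, where 5.24% of tested genes did for KHSRPi#1 and 6.93% for KHSRPi#2. For KHSRPi#1 its unadjusted limma p was 0.0477, close to the threshold. Without NTC replicate 1, 0 members passed for KHSRPi#1, where 408 of 10943 tested genes did. Leaving out any single library of the knockdown groups also gave 0 members there. The log2 fold change of PMAIP1 was 0.13 for KHSRPi#1 (adjusted p = 0.937) and 0.18 for KHSRPi#2 (adjusted p = 0.593), and that of BAX was -0.10 and -0.091. BCL2 was at -0.00015 for KHSRPi#1 and 0.11 for KHSRPi#2. The difference between the knockdown groups, KHSRPi#2 minus KHSRPi#1, was tested in the same fit and called 0 members and 0% of all tested genes, with 0 members and 1.05% of all genes at an unadjusted p under 0.05. For BCL2 this difference was 0.11 (95% interval -0.21 to 0.42), for PMAIP1 0.050 (-0.082 to 0.18), for BAX 0.0094 (-0.11 to 0.13) and for BBC3 0.13 (-0.23 to 0.50). Each of these intervals includes 0, which does not show that the knockdown groups act alike.

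Replicate 3 libraries were also set against replicates 1 and 2. The median absolute log2 difference was 0.051 for the members there, against 0.104 for all tested genes. For knockdown these medians were 0.059 and 0.060. Earlier results of these data had shown the replicate 3 library of every group apart from replicates 1 and 2, and the labels give all libraries the same batch. BCL2 was at 148, 158 and 150 TPM in replicate 3 of KHSRPi#1, KHSRPi#2 and NTC, against 107 to 135 TPM in the 6 libraries of replicates 1 and 2. Within the groups the ratio to the mean of replicates 1 and 2 was 1.27 in KHSRPi#1, 1.24 in KHSRPi#2 and 1.29 in NTC, and the ranges did not overlap. The log2 difference, tested within groups, was 0.34 (SE 0.054, limma adjusted p = 0.00083). BBC3 was at 2.95, 3.45 and 3.53 TPM in replicate 3 of KHSRPi#1, KHSRPi#2 and NTC, against 1.93 to 2.94 TPM in the others. The log2 difference of BBC3 was 0.36 (SE 0.085, adjusted p = 0.00776), and the ranges nearly touched. Without KHSRPi#2 replicate 3 the difference of BBC3 was about as large, at 0.34, and did not pass (adjusted p = 0.0563). In this comparison 30.3% of all tested genes were called, and 41.6% had an unadjusted p under 0.05 (3 of 10 members, BCL2L1 the third); 2 members of 10 called is near the background share. The replicate 3 library was above both others of its group in all 3 groups for BCL2 and BBC3 and for 26% of tested genes; it was below both in all 3 groups for 0 members and 16.6% of tested genes.

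The other 8 members did not pass. BCL2L1 (log2 difference 0.12, adjusted p = 0.102) and BAD (0.12, adjusted p = 0.225) were above 0, and MCL1 (-0.054, adjusted p = 0.291) and BID (-0.048, adjusted p = 0.362) below. MCL1 passed under median-ratio rescaling, at -0.083 (limma adjusted p = 0.0444). With that rescaling 34.3% of all tested genes were called, and 3 of the 10 members (BCL2, MCL1 and BBC3). The ratio of BCL2 to MCL1 was 1.21 to 1.25 in the replicate 3 libraries and 0.845 to 1.003 in the others, where KHSRPi#2 replicate 1 was the 1 library with BCL2 above MCL1. BCL2 accordingly made up 51.9% to 52.9% of the summed guardian level in replicate 3 and 43.3% to 47.6% in the others. The summed level of 5 myeloid markers, nearly all of it LYZ, was 36.9 to 42.0 TPM in replicate 3 libraries and 59.4 to 91.0 TPM in the others, with CD14 and MPO under 0.1 TPM throughout and FCGR3A listed at 0. The summed B cell markers ran the other way, at 4.90 to 5.32 TPM in replicate 3 libraries and 3.50 to 4.51 TPM in the others. The part of these differences in the BCL2 and BBC3 results was not tested.

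**Figure D4:**
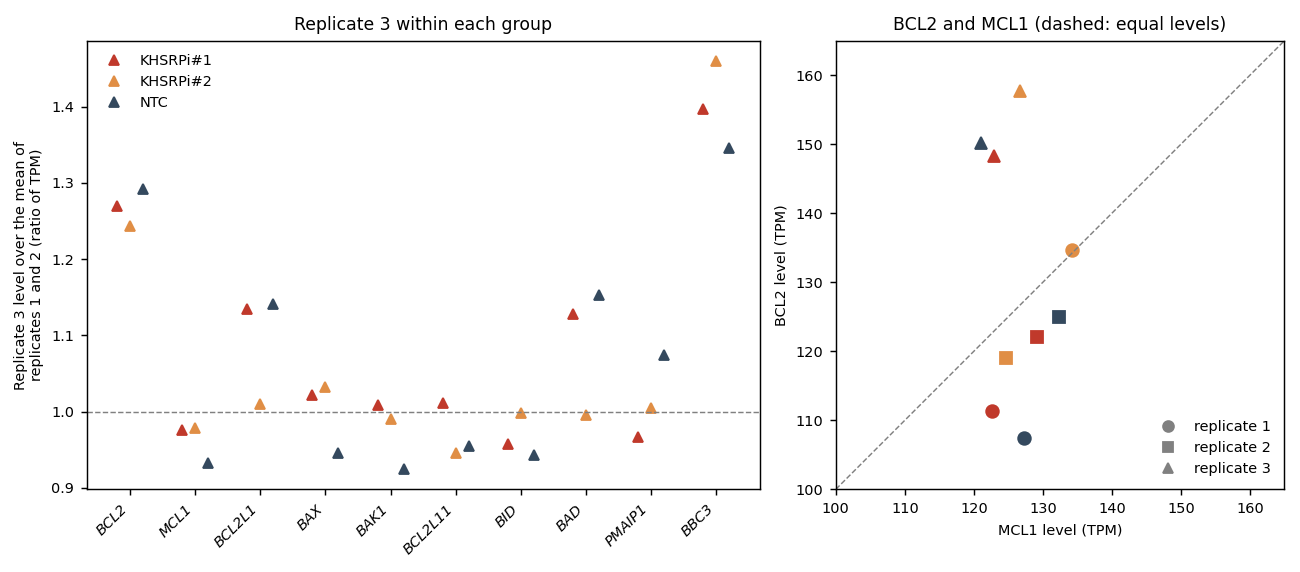
Left, level in replicate 3 divided by the mean of replicates 1 and 2 of the same group (y axis, ratio of TPM) for each gene and group; right, BCL2 against MCL1 levels in TPM, 1 symbol per library, with equal levels dashed. BCL2 and BBC3 lie above 1.2 in all 3 groups, and the 3 replicate 3 triangles lie above the line of equal levels, with a BCL2 to MCL1 ratio of 1.21 to 1.25.

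Genes that act before and after this family in apoptosis were examined from lists of 60 other genes, of which 50 passed the filter. None was called in either direction with limma, with or without the term for replicate 3; 5 genes (10%) had an unadjusted p under 0.05, where 7.93% of all tested genes did. Of the 50 fold changes 30 were positive and 20 negative, between -0.21 and 0.20 on the log2 scale, with a median of 0.0086. The death receptor list held 4 of those 5 genes. The receptors FAS (4.13 ± 0.273 TPM in knockdown, 4.96 ± 0.347 TPM in NTC) and TNFRSF1A (35.6 ± 0.747 TPM in knockdown, 40.1 ± 3.06 TPM in NTC; SD, n = 6 and 3) were lower in all knockdown libraries than in all NTC libraries. CASP8, the initiator caspase of that pathway, was higher in all knockdown libraries, at 21.3 ± 1.03 TPM against 18.6 ± 1.13 TPM in NTC. Of the 50 genes, 1 lay above and 2 lay below all NTC libraries in this way. The shares of all tested genes were 3.1% and 1.57%. The log2 fold changes of FAS, TNFRSF1A and CASP8, at -0.21, -0.17 and 0.18, did not pass (adjusted p = 0.516, 0.505 and 0.512). The median of the 10 tested genes of the death receptor list was -0.087, with 4 positive and 6 negative.

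In the remaining lists single members stood at values that did not pass either. Among 7 other tested BCL2 family genes, 6 were positive, with BIK, a BH3-only gene, at 52.8 TPM in knockdown and 48.3 TPM in NTC (log2 fold change 0.13, limma adjusted p = 0.667) and BNIP3 at 0.053. BCL2A1, BCL2L10, BCL2L15 and HRK were under 1 TPM, and BOK and BCL2L14 were listed at 0 in every library. Among 9 genes of the apoptosome and caspases, CASP2 was at 48.6 TPM in knockdown and 52.9 TPM in NTC (-0.12, adjusted p = 0.599) and CASP6 at 0.071. Of 7 mitochondrial genes, the channel VDAC3 was at 350 TPM in knockdown and 320 TPM in NTC (0.12, adjusted p = 0.671) and the nuclease ENDOG at 0.084. Of 5 inhibitors of apoptosis, XIAP was at 0.13 and BIRC2 at 0.081. For MCL1 protein turnover, the ubiquitin ligase genes FBXW7 and HUWE1 both stood at 0.12 (adjusted p = 0.715 and 0.742). Of the transcription factors, DDIT3, a stress factor that induces BCL2L11, was at 15.6 TPM in knockdown and 13.4 TPM in NTC (0.20, adjusted p = 0.675). Of 4 RNA-binding proteins listed for BCL2 mRNA, TIA1 was at -0.11, ELAVL1 at -0.043, NCL at -0.013 and HNRNPD at -0.00021, none past the threshold.

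**Figure D5:**
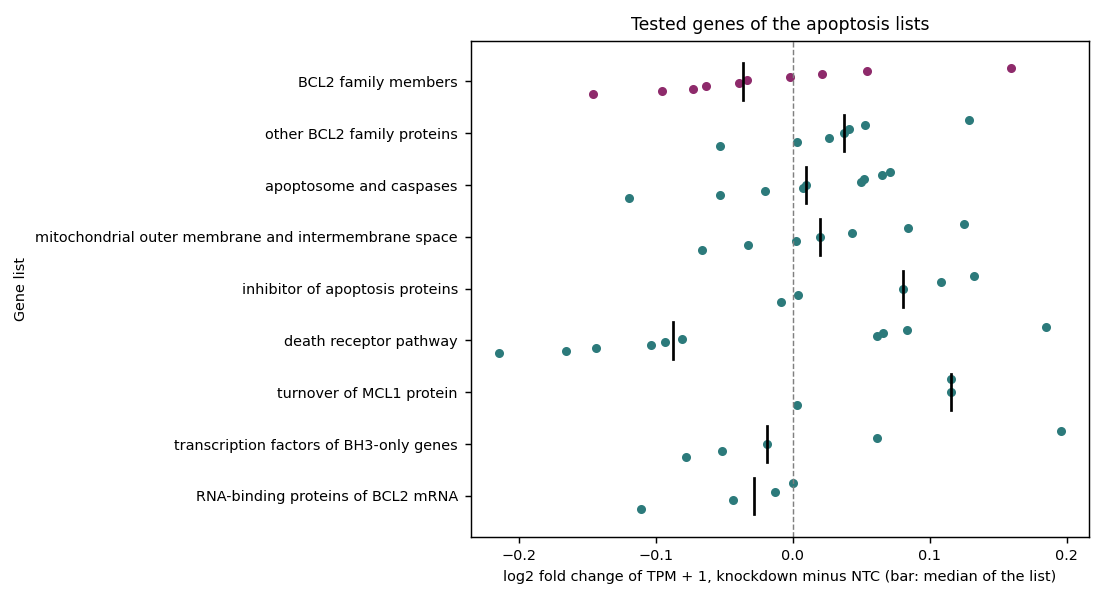
Log2 fold change of TPM + 1, knockdown minus NTC (x axis), for each tested gene of the 10 members and 8 other lists; black bars are list medians. All points lie between -0.21 and 0.20, and none passes after adjustment.

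The genes most like BCL2 and MCL1 across libraries were found by Pearson's r of log2(TPM + 1) over the 9 libraries, after the mean of the replicate 3 libraries and that of the others had been subtracted. For BCL2 these were GNA13 (r = 0.997), SCYL2 (0.995) and SLC38A1 (0.992) among 10938 genes. For MCL1 they were MAPK14 (0.987), CANT1 (0.978) and ADNP (0.975). With 9 libraries and this many genes, correlations of such size are picked from the extreme of a large number of comparisons, and the libraries share 1 cell line and the TPM scaling.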

How the data were processed

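RNA from 9 CAL-1 libraries was measured; it was extracted with a column kit and made into Kapa libraries, per the labels. The deposited table used here holds TPM values, and every library in it sums to 1000000; read totals cannot be had from such values, and count models were not applied to them. Coordinates refer to hg38 (per the submitters' processing notes). The deposited table's name carries that of the aligner STAR; not given in the sources used here are its version, the counting tool, the annotation and strandedness. Columns were matched to samples through the labels, and groups and replicate numbers come from the titles. Separate cultures are not stated, and the spread behind the p-values may be technical only.

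The filter kept 10939 genes averaging 1 TPM or more. Their log2(TPM + 1) values (the 1 is the pseudocount) were fitted in limma 3.58.1 (R 4.3.3, intensity trend, two-sided), with all 3 groups in the fit and no covariates, and p-values were adjusted over those genes by Benjamini-Hochberg; a gene under 0.05 was called. The replicate 3 comparison used a fit with group as covariate. Fold changes on this scale understate those of low genes such as BBC3. The members and lists were chosen with earlier results of these data known. Genes named are the 10 members, KHSRP, the 2 genes with the smallest p in each list (1 of them is not reported here), and the 3 most like BCL2 and MCL1; FAS and the ratios between members were chosen after their values were seen. 3' UTRs came from principal GENCODE 29 transcripts, found for 88.7% of tested genes. The fit was tested on simulated data with independent values for each library and no shift shared by the replicate 3 libraries. That run cannot show how the fit behaves under such a shift. Descriptions and figures were made in Python 3.11.15 (pandas 2.3.3, numpy 2.4.6, matplotlib 3.10.9). The alternatives were other pseudocounts and filters, rescaling, quantile normalization, a replicate block, a term for replicate 3, replicates 1 and 2 alone, and leaving out each library.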

Additional observations from a re-analysis of the deposited data

Results flagged for a closer look

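Among the 6 knockdown libraries, the highest value stood apart from the rest for 2 of the 10 genes by Dixon's criterion, which flags about 1 in 20 groups by chance. BCL2L11 was at 16.7 TPM in KHSRPi#2 replicate 1, with a gap of 0.742 of the range of the 6 libraries to the next. BID was at 66.7 TPM in KHSRPi#1 replicate 2, with a gap of 0.637 of the range. Both values lie near the highest NTC libraries, at 16.3 TPM for BCL2L11 and 66.6 TPM for BID.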

How the results depend on the processing

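Of 716 values of the members under the alternatives, for knockdown, for each knockdown group and between the knockdown groups, limma called 0 (lowest adjusted p 0.108), and 44 changed sign, with sizes up to 0.12 on the log2 scale. BCL2 was called higher in replicate 3 under every alternative run, between 0.31 and 0.37 without single libraries. At a filter of 5 TPM BBC3 was not tested, which leaves 1 member called there. Counts of all genes depended on the fit. With a replicate block, 152 genes were called for knockdown, 54 for KHSRPi#1, 91 for KHSRPi#2 and 1 between the knockdown groups; 0 members were among them. The replicate numbers are not shown to pair the libraries. Deviations of log2(TPM + 1) from the group means were correlated between same-numbered libraries of different groups. These correlations ran from 0.0398 to 0.628, over 0.1 in 8 of 9 pairs. Pairs of replicate 3 libraries stood at 0.622 to 0.628, and the other same-numbered pairs at 0.0398 to 0.324. The 3 of 9 libraries that correlated best with their own number were those of replicate 3. With a term for replicate 3, 192, 74 and 88 genes were called for knockdown, KHSRPi#1 and KHSRPi#2. Replicates 1 and 2 alone gave 14 for knockdown and 1 between the knockdown groups, and no filter also gave 1 there. Without single libraries the count was 3 to 7 for knockdown, 2 to 4 for KHSRPi#1, 3 to 6 for KHSRPi#2, 0 to 1 between the knockdown groups and 1799 to 3322 for replicate 3, with 1 to 2 members called for replicate 3.

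Log2 values that changed sign had sizes up to 0.12, and the cause was not tested. For comparison, the median absolute change of the members for knockdown was 0.059. Median-ratio rescaling gave -0.015 for MCL1 in KHSRPi#2, -0.019 for BAX and -0.010 for BAK1 between the knockdown groups, and -0.0066 for PMAIP1 in replicate 3. Quantile normalization gave -0.0065 for BCL2L11 in knockdown, -0.0097 for BCL2L1 and -0.016 for BAK1 between the knockdown groups, and 0.025 for BAX in replicate 3. Replicates 1 and 2 alone gave 0.0088 for BCL2 in KHSRPi#1, -0.0043 for MCL1 and 0.050 for BAD in KHSRPi#2. Leaving out single libraries gave these ranges. For knockdown they were -0.062 to 0.18 for BCL2, -0.035 to 0.029 for MCL1, -0.010 to 0.072 for BCL2L11, -0.076 to 0.00028 for BAK1 and -0.18 to 0.0052 for BAD. For KHSRPi#1 they were -0.12 to 0.12 for BCL2, -0.055 to 0.0083 for MCL1, -0.038 to 0.045 for BCL2L11 and -0.043 to 0.015 for BID. For KHSRPi#2 they were -0.0075 to 0.23 for BCL2, -0.014 to 0.049 for MCL1, -0.089 to 0.0037 for BCL2L1, -0.067 to 0.0088 for BAK1, -0.14 to 0.048 for BAD and -0.21 to 0.030 for BBC3. Between the knockdown groups they were -0.0085 to 0.035 for BAX, -0.024 to 0.053 for BAK1 and -0.0016 to 0.25 for BBC3. For replicate 3 they were -0.024 to 0.039 for BAX, -0.061 to 0.00073 for BAK1 and -0.020 to 0.057 for PMAIP1. The depth in reads is unknown, so the precision of low genes such as BBC3 rests on the spread between libraries.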
